A study of Mus musculus with 12 samples.

Results

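The Pgc1 coactivators (Ppargc1a, Ppargc1b and Pprc1) and 7 of their partners (Esrra, Gabpa, Nrf1, Ppara, Ppard, Sirt1 and Sirt3) were followed in mouse proximal tubule (PT) cells. The 10 genes were taken by name from the 25514 genes that the counts covered, and each was read from its transcript with the highest total. RNA was sequenced from 12 libraries in 4 groups of 3, namely TβRII flox/flox and TβRII-/- PT cells without treatment, and each line after 24 h of H2O2. The labels give the H2O2 dose as 200 mM, whereas the study's methods give the same figure in micromolar. All 4 groups descend from PT cells of a male mouse with floxed Tgfbr2 alleles and the Immorto-mouse H2ts6 transgene, a temperature-sensitive large T antigen that lets the cells be expanded and then switched off. TβRII-/- PT cells were made from the floxed cells in culture with an adenovirus carrying Cre, so each genotype is 1 cell line, and genotype and line cannot be told apart. Untreated cells were kept in complete medium and treated cells were in serum-free medium, so H2O2 and the change of medium cannot be told apart. The labels do not say whether the 3 libraries of a group came from separate cultures, so p-values measure only the spread between these libraries, which may be technical.

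Pgc1 coactivators do not bind DNA themselves. They dock on transcription factors and bring in acetyltransferases and the Mediator complex, and they are known for raising the expression of mitochondrial and fatty acid oxidation genes. PT cells rely on fatty acid oxidation, and Ppargc1a is well known in this segment of the nephron. Esrra, an orphan nuclear receptor, is its main partner on oxidative metabolism genes. Nrf1 and Gabpa, the DNA-binding subunit of the Gabp complex, drive respiratory chain and mitochondrial transcription genes. Ppara and Ppard are fatty acid sensing receptors, Sirt1 deacetylates Ppargc1a, and Sirt3 is a deacetylase inside mitochondria.

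The libraries held between 15870155 and 20857618 counts over the chosen transcripts. The targeted gene, Tgfbr2, had means of 8393 ± 843 normalized counts (SD, n = 3) in the untreated TβRII flox/flox and 6605 ± 220 in the untreated TβRII-/- line, and of 13633 ± 328 and 7216 ± 97.7 after H2O2. Its counts cover the whole transcript and not the deleted stretch alone, so they bear on the direction of the labels only. The PT markers Lrp2 and Aqp1 were abundant (list sums of 22982 to 28816 in untreated TβRII flox/flox and 16396 to 17492 in untreated TβRII-/- PT cells, and 31622 to 34359 and 16867 to 18141 with H2O2), but 5 of 12 PT markers, among them Slc34a1, Slc22a6 and Hnf4a, had at most 3 counts in every library. The lines also differed in epithelial markers: Cdh1 (E-cadherin) averaged 1.80 normalized counts in untreated TβRII flox/flox and 1111 in TβRII-/- PT cells, and the summed general epithelium list (4 of 6 with at least 10 counts in every library) ran from 17564 to 19092 and from 37232 to 40332. The sum of the fibroblast and smooth muscle list, which was mostly Acta2, ran from 519.7 to 548.5 in untreated TβRII flox/flox and from 2366 to 2632 in untreated TβRII-/- PT cells. With H2O2 it ran from 248.9 to 279.6 and from 626.8 to 762.7. Other genes of that list went the other way between the lines: Col1a1 averaged 42.0 and 14.3 normalized counts untreated and 57.1 and 21.7 with H2O2, and Pdgfrb averaged 16.3 and 2.41, and 21.2 and 2.77. The endothelium list, almost all Kdr, also had lower sums with H2O2 (126.9 to 137.8 against 22.7 to 26.4 in TβRII flox/flox, and 463.7 to 585.6 against 39.3 to 62.6 in TβRII-/- PT cells), while its defining marker Pecam1 had at most 1 count. The distal nephron list summed to at most 10.94, and the podocyte and leukocyte lists were mostly Wt1, Podxl and Cd68, with Nphs1 and Adgre1 at 0. The part of these marker differences in the results was not tested.

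Ppargc1a lies on chromosome 5 (GRCm38 51454249 to 52115853, minus strand), and 5 of its transcripts had counts. Its tabulated RefSeq promoter window lies inside this span, so the tabulated gene reaches further upstream than the window. The window was found once on chromosome 5 of GRCm39. Its start fell 1 base from that of Ppargc1a-202 and 13803 bases upstream of that of Ppargc1a-203, the transcript with the highest total. It is called the upstream start here, relative to Ppargc1a-203 only. The 250 bases before this start are shown because the transcript results turn on the gene, with capitals marking the core of the cAMP response element (TGACG, either strand), the letters by which Creb1 is known to bind.

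Ppargc1a, GRCm38.p6, chr5:51567726-51567975, minus strand: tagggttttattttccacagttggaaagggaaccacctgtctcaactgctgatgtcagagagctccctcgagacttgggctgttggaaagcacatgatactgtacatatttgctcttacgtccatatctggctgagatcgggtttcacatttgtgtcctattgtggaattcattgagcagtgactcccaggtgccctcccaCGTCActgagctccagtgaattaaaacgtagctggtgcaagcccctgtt

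The match begins 49 bases before the start, and 17.8% of the 32851 tabulated mouse promoter windows of the same length hold these letters on either strand. Among the member genes, 9 had 11 windows in the table, and 4 of the windows held the core. The full element (TGACGTCA, a special case of the core, in 1.55% of all windows) and the Esrra motif (TCAAGGTCA, in 0.387%) were in none of the 11. The Nrf1 motif (GCATGCGC, in 2.26% of all windows) was found for Esrra and Ppara, and the motif of Gabpa and other ETS factors (CCGGAAGT, in 2.88%) for Sirt3. The Sp1 motif (GGGGCGGGG, in 10.4%) was found for Sirt1 and Ppard, and the E-box (CACGTG, in 6.02%) for Sirt1, where 1 of its matches overlaps the TGACG core. The core was added to the search after the full element had matched in none of these windows, so its matches are a choice made with the sequences known. Both partner motifs are shown with 10 bases on each side and the motif in capitals. They are shown for Esrra and Sirt3, which were higher in TβRII-/- PT cells in both media. Ppara, with too few counts to be tested, is left out. Any part of Nrf1 or Gabpa in the differences of Esrra and Sirt3 was not tested.

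Esrra, Nrf1 motif, GRCm38.p6, chr19:6921825-6921852, minus strand: cccctgttttGCATGCGCaggccggccc
Sirt3, ETS motif, GRCm38.p6, chr7:140882378-140882405, minus strand: gtgctcgctcACTTCCGGcaccgcgggc

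Per kilobase of transcript, Pprc1 was the most abundant of the 3 coactivators in every group. In untreated TβRII flox/flox PT cells the order was Pprc1 (733.5 ± 47.3 normalized counts per kb; SD, n = 3), Gabpa (497.1 ± 35.7), Esrra (312.6 ± 5.45), Ppard (256.1 ± 17.1), Nrf1 (155.6 ± 8.19), Sirt1 (88.6 ± 3.78), Sirt3 (33.3 ± 5.70), Ppargc1a (13.4 ± 0.342), Ppargc1b (9.13 ± 1.42) and Ppara (0.200 ± 0.173). No neighbours in this order overlapped. The first 5 kept this order in all 4 groups. Between the lines, Ppargc1a moved up in the order. In untreated TβRII-/- PT cells it stood at 65.9 ± 5.53 per kb, and its range overlapped those of both its neighbours, Sirt1 (73.8 ± 7.63) and Sirt3 (60.5 ± 7.93). After H2O2 it reached 90.2 ± 2.44 per kb in TβRII-/- PT cells, above Sirt1 (76.0 ± 2.35), whose range it did not overlap. In TβRII flox/flox PT cells with H2O2, Ppargc1a was at 10.6 ± 3.24 per kb and stood below Ppargc1b, at 17.4 ± 3.73. There Ppargc1b had risen from 9.13 per kb (edgeR, adjusted p = 0.00107). The change of Ppargc1a from 13.4 per kb did not pass an adjusted p of 0.05 (edgeR, adjusted p = 0.0985).

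**Figure D1:**
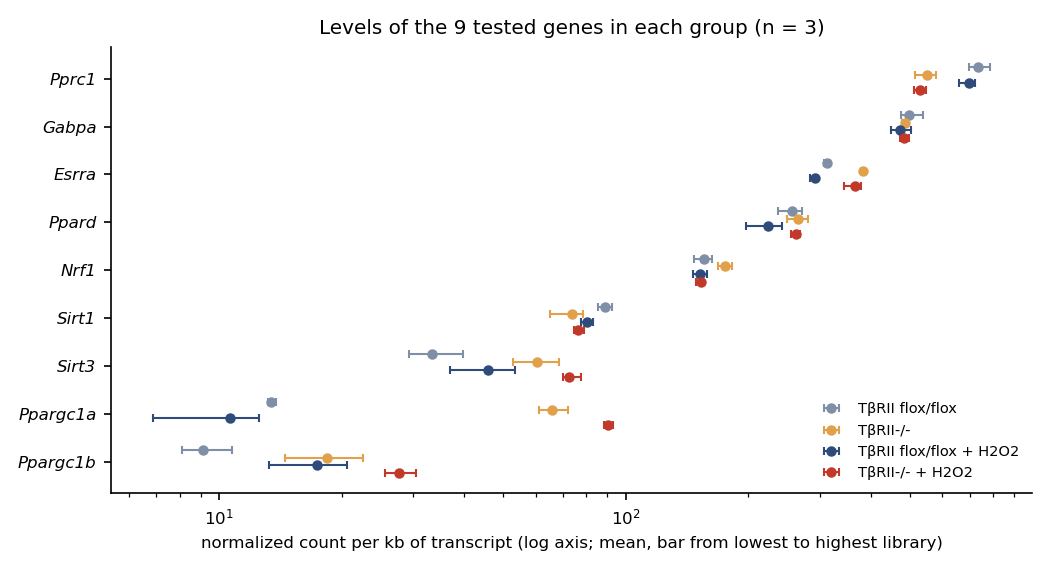
Normalized counts per kb of transcript (log axis) of the 9 tested genes in each group, as mean with a bar from the lowest to the highest of 3 libraries. Pprc1, Gabpa, Esrra, Ppard and Nrf1 kept their order in all groups, and Ppargc1a ran from 10.6 per kb in TβRII flox/flox to 90.2 per kb in TβRII-/- PT cells with H2O2.

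Of the summed per-kb levels of the 3 coactivators, Ppargc1a made up 1.78 ± 0.128% in untreated TβRII flox/flox, 10.39 ± 0.900% in untreated TβRII-/-, 1.468 ± 0.483% in H2O2-treated TβRII flox/flox and 13.99 ± 0.658% in H2O2-treated TβRII-/- PT cells (SD, n = 3). Pprc1 made up 97.0%, 86.7%, 96.2% and 81.7% in the same order. Ppargc1b made up 1.21%, 2.90%, 2.37% and 4.30%.

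The first question was how deletion of the receptor bears on these genes in untreated cells. Of the 9 members tested, 5 were higher and 2 were lower in TβRII-/- PT cells (edgeR quasi-likelihood test, adjusted p under 0.05 over all genes), and Gabpa and Ppard were not called. Over all 12971 genes tested, 33.3% were higher and 31.4% lower, so calls were common between the lines. At the study's limits (p under 0.01 and a fold of at least 1.5), 3 members were called against 27% of all genes. The members' median log2 fold change was 0.17 and that of all genes was 0.01. In bulk samples, fewer cells of a type and less RNA per cell cannot be told apart.

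Ppargc1a had 85.2, 85.7 and 89.3 normalized counts in the untreated TβRII flox/flox libraries and 395.3, 417.3 and 465.2 in the untreated TβRII-/- libraries. The groups did not overlap, and the lowest TβRII-/- library stood far above the highest TβRII flox/flox library. The fitted log2 fold change was 2.30 (SE 0.12, 95% interval 2.04 to 2.55, adjusted p = 5.01e-17), which is 4.91-fold. With H2O2 the libraries held 81.2, 44.4 and 80.2 against 570.5, 600.7 and 577.8 normalized counts. Here the lines stood further apart, with a log2 fold change of 3.09 (SE 0.12, 95% interval 2.84 to 3.34, adjusted p = 1.83e-20), or 8.52-fold.

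Ppargc1b, the related coactivator that shares many partners with Ppargc1a, is on chromosome 18 and had 31.6, 33.4 and 41.9 normalized counts in untreated TβRII flox/flox and 56.5, 70.7 and 88.1 in untreated TβRII-/- PT cells. All 3 TβRII-/- libraries were above the TβRII flox/flox libraries, with a log2 fold change of 1.01 (SE 0.21, adjusted p = 0.000117). Pprc1, a coactivator that is known to respond quickly to serum, went the other way. It had 4165, 3686 and 3801 normalized counts in untreated TβRII flox/flox and 3062, 2720 and 2969 without the receptor, which gave a log2 fold change of -0.41 (SE 0.06, adjusted p = 8.52e-07). The coactivators therefore differed in direction between the lines, with Pprc1 lower and both others higher in TβRII-/- PT cells.

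**Figure D2:**
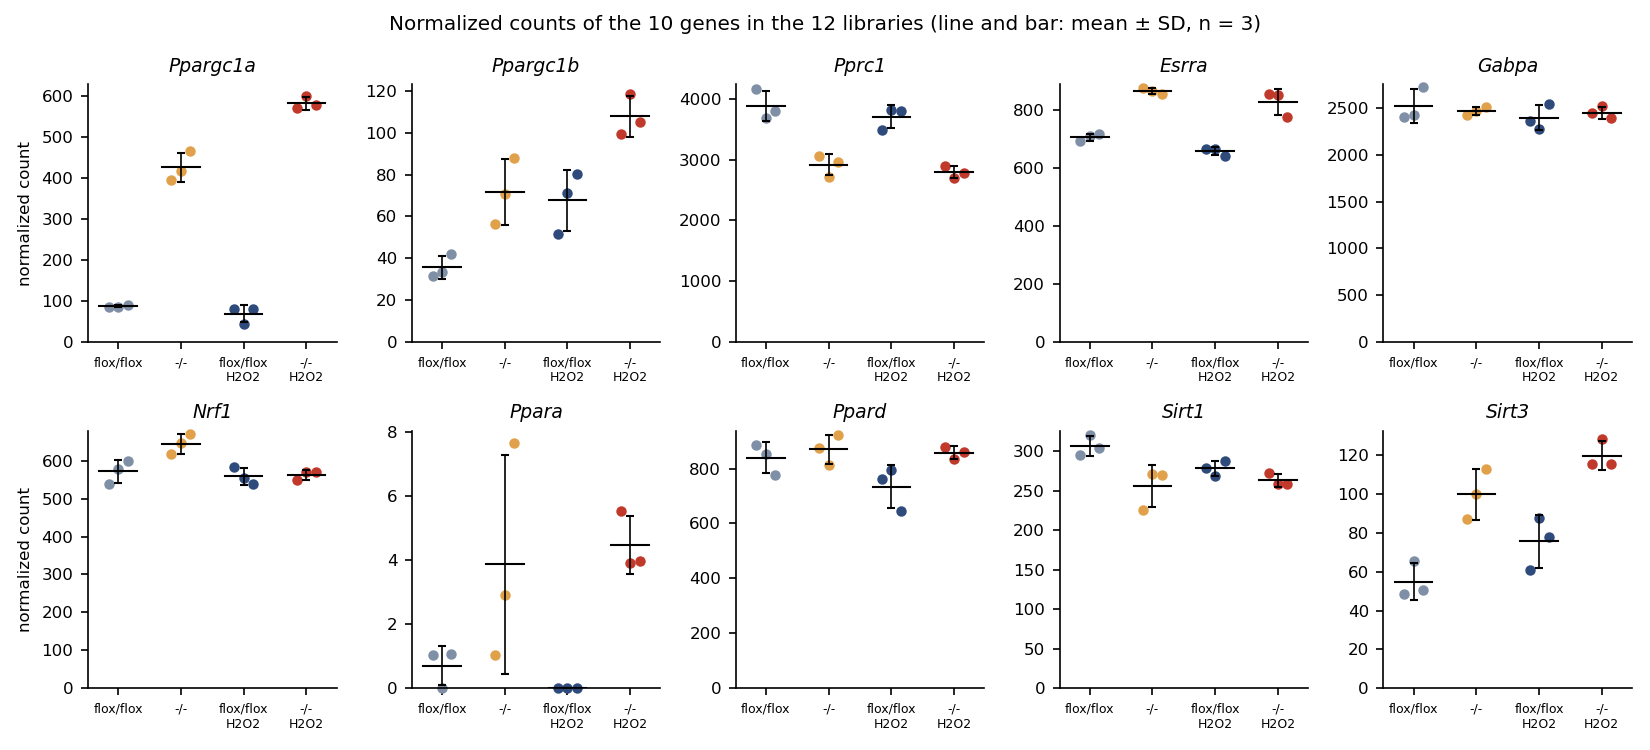
Normalized counts of the 10 genes (vertical axes from 0, scaled per gene) in each library of the 4 groups, with mean ± SD (n = 3). Ppargc1a, Ppargc1b and Sirt3 sat higher in both TβRII-/- groups than in the TβRII flox/flox group of the same medium, Pprc1 sat lower, and Gabpa overlapped throughout.

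Among the transcription factors, Esrra (chromosome 19) had 692.2, 708.8 and 716.2 normalized counts in untreated TβRII flox/flox and 876.3, 865.5 and 856.8 in untreated TβRII-/- PT cells. The groups did not overlap, and the log2 fold change was 0.30 (SE 0.06, adjusted p = 0.000184). Exons of Trmt112 on the opposite strand cover 65.5% of the Esrra transcript, and whether the counting used strand is not given in the sources used here, so reads from both genes may be mixed. Nrf1 had 539.7, 578.6 and 599.0 against 618.0, 645.8 and 671.0 normalized counts, a log2 fold change of 0.17 (SE 0.07, adjusted p = 0.0314). This call was near the threshold: it was lost with DESeq2 (adjusted p = 0.0536), with no filter on low counts (0.0696), with only these groups in the fit (0.0559) and without replicate 1 or 2 of untreated TβRII flox/flox or replicate 2 or 3 of untreated TβRII-/- PT cells (adjusted p from 0.0568 to 0.157).

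Gabpa overlapped between the lines in both media. It ran from 2404 to 2729 normalized counts in untreated TβRII flox/flox and from 2424 to 2512 in untreated TβRII-/- PT cells, with a log2 difference of -0.03 and a 95% interval from -0.15 to 0.09. Ppard ran from 777.5 to 886.8 and from 814.2 to 920.9 normalized counts in the same groups, with a log2 difference of 0.05 (95% interval -0.10 to 0.20, adjusted p = 0.559). Ppara was barely seen: its raw counts were 1, 0 and 1 in untreated TβRII flox/flox, 1, 3 and 8 in untreated TβRII-/-, 0, 0 and 0 in H2O2-treated TβRII flox/flox and 6, 5 and 4 in H2O2-treated TβRII-/- PT cells. It did not pass the filter on low counts and was not tested. Against a floor of 3 counts per library for the libraries at 0, its mean with H2O2 was at least 1.49-fold higher in TβRII-/- PT cells.

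Of the sirtuins, Sirt1 was lower and Sirt3 higher in untreated TβRII-/- PT cells. Sirt1 (chromosome 10) had 294.6, 320.5 and 304.3 against 224.8, 271.1 and 269.9 normalized counts, with no overlap and a log2 fold change of -0.26 (SE 0.09, adjusted p = 0.0153). Without replicate 1 of untreated TβRII-/- PT cells, its lowest library, the call was lost (log2 fold change -0.18, adjusted p = 0.116). The Sirt1 transcript with the highest total is annotated as a target of nonsense-mediated decay, and the call held with the sum over transcripts. Sirt3 (chromosome 7) had 48.4, 65.7 and 50.5 against 86.8, 99.7 and 113.0 normalized counts, a log2 fold change of 0.87 (SE 0.18, adjusted p = 6.63e-05). Exons of Psmd13 and Ric8a on the opposite strand cover 36.3% of the Sirt3 transcript, so its counts carry the same doubt on strand as those of Esrra.

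With H2O2, 5 members were again higher and 1 was lower in TβRII-/- PT cells, and Gabpa, Nrf1 and Sirt1 were not called. Over all genes 35.1% were higher and 31.3% lower, and at the study's limits 3 members and 29.8% of all genes were called. The median log2 fold change of the members was 0.22, beside 0.02 for all genes. Ppargc1b (0.68, SE 0.18, adjusted p = 0.00107), Sirt3 (0.67, SE 0.16, adjusted p = 0.00046) and Esrra (0.33, SE 0.06, adjusted p = 4.03e-05) were higher on the log2 scale, and Pprc1 was lower (-0.41, SE 0.06, adjusted p = 9.53e-07). Ppard was called higher here, with 761.9, 794.3 and 646.4 against 879.7, 835.0 and 860.2 normalized counts and a log2 fold change of 0.22 (SE 0.07, adjusted p = 0.00905). Its lowest library decided that call: without replicate 3 of H2O2-treated TβRII flox/flox PT cells the log2 fold change was 0.10 (adjusted p = 0.246), and with the sum over transcripts it was 0.18 (adjusted p = 0.0717).

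**Figure D3:**
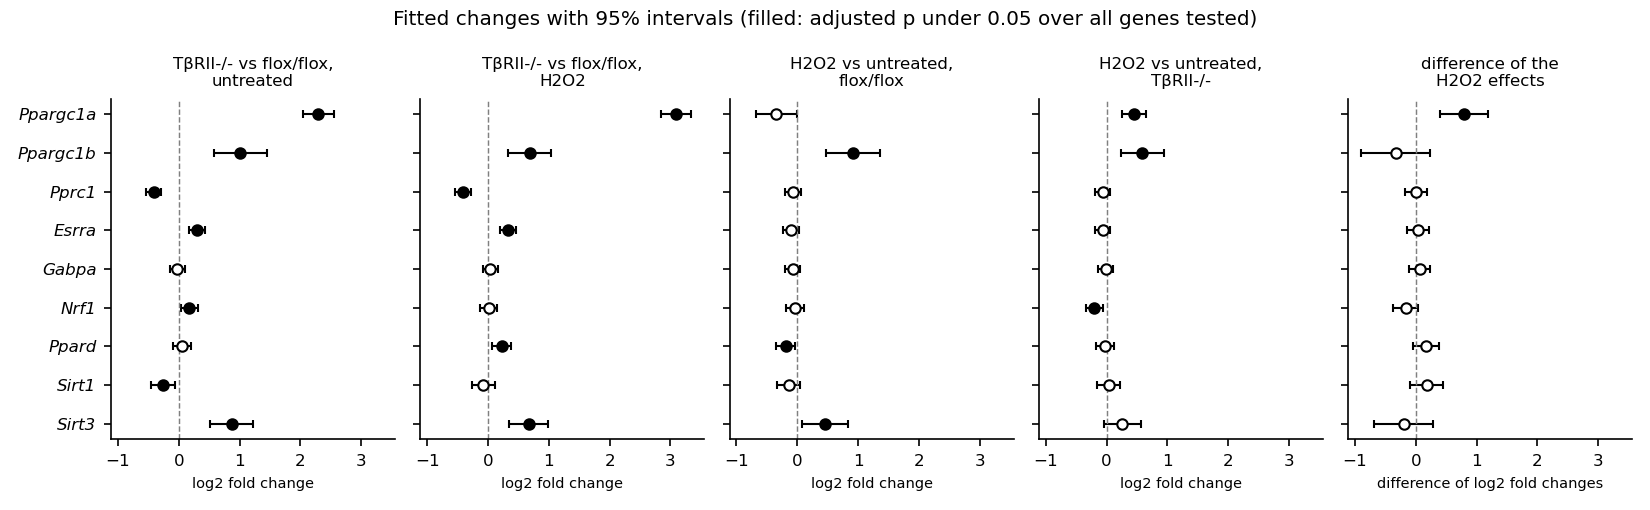
Fitted log2 fold changes (horizontal axes) of the 9 tested members with 95% intervals in 5 comparisons, filled where the adjusted p over all genes tested was under 0.05. Ppargc1a had the widest separation between the lines (2.30 untreated and 3.09 with H2O2) and the only filled point for the difference of the H2O2 effects (0.80).

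The genotypes are 2 cell lines, so the 12 tested genes on each side of a member on its chromosome were read as a description. Around Ppargc1a, the 24 neighbours had a median log2 fold change of 0.49 between untreated lines and an upper quartile of 2.998, and 7 of the 24 were at or above Ppargc1a itself. With H2O2 the neighbours' median was 0.65, and again 7 of 24 were at or above it. Higher expression in TβRII-/- PT cells was thus shared by several genes of the region, and its part in the Ppargc1a difference was not tested. The neighbours of Pprc1 had a median of 0.08, with 22 of 24 at or above Pprc1, those of Ppargc1b had a median of -0.23 with 5 of 24 at or above it, and those of Sirt3 had a median of 0.19 with 6 of 24 at or above it.

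The next comparison asked what 24 h of H2O2 in serum-free medium did to each line. In TβRII flox/flox PT cells, 2 members rose, 1 fell and 6 were not called, while 21% of all genes rose and 20.5% fell. At the study's limits 1 member was called, against 7.56% of all genes. In TβRII-/- PT cells, 2 members rose, 1 fell and 6 were not called, while 20.5% of all genes rose and 19.1% fell, and the study's limits called 1 member against 7.77% of all genes. The members' median log2 fold changes were -0.07 and -0.01, and those of all genes were 0.01 and 0.02. Ppargc1b was the 1 member that rose in both lines.

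Ppargc1b went from 31.6, 33.4 and 41.9 to 51.7, 71.3 and 80.2 normalized counts in the TβRII flox/flox line. The groups did not overlap, and the log2 fold change was 0.92 (SE 0.22, adjusted p = 0.00107), or 1.89-fold. In TβRII-/- PT cells it went from 56.5, 70.7 and 88.1 to 99.7, 118.7 and 105.4 normalized counts, again without overlap, with a log2 fold change of 0.59 (SE 0.17, adjusted p = 0.00708). Without replicate 1 of untreated TβRII-/- PT cells this call was lost (log2 fold change 0.45, adjusted p = 0.0572). The difference between its H2O2 effects was -0.33 (95% interval -0.90 to 0.24, adjusted p = 0.521).

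Ppargc1a rose in TβRII-/- PT cells, from 395.3, 417.3 and 465.2 to 570.5, 600.7 and 577.8 normalized counts (log2 fold change 0.45, SE 0.09, adjusted p = 0.000258), which is 1.37-fold and below the study's fold limit. In TβRII flox/flox PT cells it had 85.2, 85.7 and 89.3 without and 81.2, 44.4 and 80.2 normalized counts with H2O2. All 3 treated libraries were below the untreated ones, 1 of them by far, and the log2 difference of -0.34 (SE 0.17) did not pass the threshold (adjusted p = 0.0985). The value depended on the treated libraries: it was -0.10 (adjusted p = 0.661) without replicate 2, the lowest, and -0.49 (adjusted p = 0.0389) without replicate 1 of H2O2-treated TβRII flox/flox PT cells.

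The H2O2 effect on Ppargc1a differed between the lines. The difference of the log2 fold changes was 0.80 (SE 0.19, 95% interval 0.41 to 1.18, adjusted p = 0.00635), and Ppargc1a was the 1 member called in this test. Over all genes 3.9% had a higher and 6.28% a lower H2O2 effect in TβRII-/- PT cells, and the study's limits called 1 member and 2.75% of all genes. The low library was 1 treated TβRII flox/flox replicate: without replicate 2 of that group the difference was 0.53 and missed the threshold narrowly (adjusted p = 0.0501). For the other 8 tested members the difference was between -0.33 and 0.18, with a median over all 9 of 0.04 and of 0.01 over all genes.

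The other 3 members called with H2O2 were Nrf1, Ppard and Sirt3, each in 1 line. Nrf1 fell in TβRII-/- PT cells from 618.0, 645.8 and 671.0 to 548.3, 569.2 and 569.8 normalized counts (log2 fold change -0.20, SE 0.07, adjusted p = 0.0226). Its call was lost without replicate 2 or 3 of untreated or replicate 1 of H2O2-treated TβRII-/- PT cells (adjusted p from 0.0530 to 0.0957). Ppard fell in TβRII flox/flox PT cells from 886.8, 853.5 and 777.5 to 761.9, 794.3 and 646.4 normalized counts, groups that overlapped (log2 fold change -0.19, SE 0.08, adjusted p = 0.0409). That call was lost with DESeq2 (adjusted p = 0.0879), with other size factors (0.0614), with a filter of at least 10 counts in every library (0.0546), with only these groups in the fit (0.0585) and without any of 4 single libraries of the 6: replicate 1 or 2 of the untreated or replicate 1 or 3 of the treated cells (0.0562 to 0.347).

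Sirt3 rose in TβRII flox/flox PT cells from 48.4, 65.7 and 50.5 to 60.9, 87.8 and 77.9 normalized counts, also with overlap (log2 fold change 0.46, SE 0.19, adjusted p = 0.0450). DESeq2 did not call it (adjusted p = 0.0736), and neither did the fit of only these groups (0.0667) or the fits without replicate 1 or 3 of the untreated or replicate 2 or 3 of the treated cells (0.0928 to 0.221). In TβRII-/- PT cells Sirt3 had 115.4, 128.2 and 115.4 normalized counts with H2O2, a log2 difference of 0.26 (95% interval -0.05 to 0.57, adjusted p = 0.172). Pprc1, Esrra, Gabpa and Sirt1 passed the threshold for H2O2 in neither line. Their log2 differences lay between -0.14 and 0.04, and for Pprc1 the 95% interval was from -0.20 to 0.06 in TβRII flox/flox and from -0.19 to 0.06 in TβRII-/- PT cells.

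The Ppargc1a transcripts were then read 1 by 1. They overlap heavily and a read can be counted on each transcript it overlaps, so they are not independent. Ppargc1a-203 (6464 bases, 13 exons, 797 coding residues) holds all 6190 bases of Ppargc1a-205 (696 coding residues), 3010 of the 3041 bases of Ppargc1a-201, 2346 of the 2452 bases of Ppargc1a-204 and 391 of the 488 bases of Ppargc1a-202. Ppargc1a-202 and Ppargc1a-204 begin at the upstream start, and only 22 bases, all in Ppargc1a-202, belong to no other transcript. Ppargc1a-201 and Ppargc1a-204 carry 31 extra bases that shorten the reading frame to 270 and 266 coding residues, and both are annotated as targets of nonsense-mediated decay. They are shown in capitals between 9 flanking bases on each side, which are joined in Ppargc1a-203.

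Ppargc1a-201 and Ppargc1a-204, GENCODE M39 transcripts, GRCm39, chr5:51647433-51647463 for the capitals, minus strand: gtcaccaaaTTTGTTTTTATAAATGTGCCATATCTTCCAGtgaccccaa

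All 5 transcripts were higher in TβRII-/- PT cells in both media. The log2 fold changes between untreated lines ran from 2.09 (Ppargc1a-202, SE 0.31) to 2.43 (Ppargc1a-205, SE 0.15), beside 27.9% of 71474 transcripts called higher, and with H2O2 from 2.97 (Ppargc1a-205, SE 0.14) to 3.27 (Ppargc1a-202, SE 0.31), beside 28.4%. H2O2 raised all 5 in TβRII-/- PT cells by 0.41 to 0.69 on the log2 scale, where 12.9% of transcripts rose. In TβRII flox/flox PT cells none of the 5 was called for H2O2 (edgeR, adjusted p from 0.137 to 0.648, with 0 at an unadjusted p under 0.05 and 0 by DESeq2), where 31.6% of transcripts were called in either direction.

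Ppargc1a-202, the transcript with the upstream start and the fewest bases, had 9.47, 12.2 and 8.60 normalized counts in untreated TβRII flox/flox, 50.2, 41.6 and 37.3 in untreated TβRII-/-, 5.07, 4.13 and 12.6 in H2O2-treated TβRII flox/flox and 61.8, 84.9 and 62.6 in H2O2-treated TβRII-/- PT cells. It overlapped between media in TβRII flox/flox PT cells and not in TβRII-/- PT cells. Ppargc1a-201, the transcript with the extra bases, averaged 53.5 ± 7.27, 280.8 ± 23.9, 47.2 ± 13.0 and 377.2 ± 20.7 normalized counts in the same 4 groups (SD, n = 3). Since 391 of its 488 bases lie in Ppargc1a-203, counts of Ppargc1a-202 do not tell use of the upstream start from use of the downstream one. The difference of the H2O2 effects was called for Ppargc1a-203 (0.76, SE 0.19, adjusted p = 0.0151), beside 1.31% of transcripts called in that direction. Without replicate 2 of H2O2-treated TβRII flox/flox PT cells it was 0.52 and not called (adjusted p = 0.0928). It had the same sign, without passing the threshold, for the other 4 (0.55 to 1.18, adjusted p from 0.0938 to 0.195).

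Of the other genes of the pathway, 81 were tested. The counts of genes that H2O2 changed are read beside 21% of all genes raised and 20.5% lowered in TβRII flox/flox, and 20.5% and 19.1% in TβRII-/- PT cells. Counts for the difference of H2O2 effects are read beside 3.9% of all genes with a higher and 6.28% with a lower effect in TβRII-/- PT cells. At such shares, 0 or 1 call in a short list says little. Upstream regulators (22 of 24 tested) are the kinases, phosphatases and factors that act on Ppargc1a or its promoter. In untreated TβRII-/- PT cells 7 of 22 were higher and 8 lower, near the 33.3% and 31.4% of all genes, and with H2O2 12 were higher and 6 lower (35.1% and 31.3% of all genes). Nampt, which makes the NAD precursor that sirtuins depend on, was higher by 0.75 (SE 0.07) on the log2 scale in untreated cells and by 1.14 (SE 0.07) with H2O2, where the means were 1547 and 3398 normalized counts. Mef2a, a factor that acts on the Ppargc1a promoter, was higher in both media (0.54, SE 0.06, and 0.76, SE 0.06), as was Atf2 (0.83, SE 0.07, and 0.77, SE 0.07), and the Creb1 coactivator Crtc3 was lower in both (-0.55, SE 0.08, and -0.47, SE 0.08). H2O2 raised 2 and lowered 4 in TβRII flox/flox, and raised 6 and lowered 1 in TβRII-/- PT cells, where Nampt (0.41, SE 0.07) and Hdac5 (0.37, SE 0.07) rose the most. The AMP-activated kinase subunits Prkaa2 and Prkag1 fell in TβRII flox/flox PT cells (both -0.27, SE 0.07), and Prkag1 was the 1 regulator that also fell in TβRII-/- PT cells (-0.16, SE 0.06). The H2O2 effect was higher in TβRII-/- PT cells for 4 and lower for none.

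Of the other nuclear receptors and transcription factor partners, 11 of 15 were tested. Of these, Esrrg passed the filter on low counts only through the TβRII-/- libraries and Pparg only through the TβRII flox/flox libraries, so they are left out of the counts between the lines. Of the other 9, 3 were higher and 1 lower in untreated TβRII-/- PT cells (33.3% and 31.4% of all genes). Esrrg, a receptor related to Esrra, averaged 7.14 and 38.9 normalized counts in untreated and 5.76 and 56.6 in treated TβRII flox/flox and TβRII-/- PT cells. Rxra, the common partner of Ppar receptors, was higher in both media (1.24, SE 0.07, and 1.45, SE 0.07). With H2O2 4 of the 9 were higher and 0 lower (35.1% and 31.3% of all genes). Thra, a thyroid hormone receptor, was lower in untreated TβRII-/- PT cells (-0.46, SE 0.08) and fell with H2O2 in TβRII flox/flox PT cells by 0.45 (SE 0.08) on the log2 scale, where 3 genes rose and 2 fell. Foxo1, a partner that is also an upstream regulator, rose there by 0.17 (SE 0.07). In TβRII-/- PT cells H2O2 raised 2, Gabpb2 and Nr3c1, and lowered 0, and the effect differed for 1 gene, Thra. Hnf4a, a receptor that defines PT cells, had at most 1 count in any library.

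Coactivator and corepressor complexes (13 of 13 tested) had 3 genes higher and 6 lower in untreated TβRII-/- PT cells (33.3% and 31.4% of all genes), and with H2O2 5 were higher and 4 lower (35.1% and 31.3%). The Mediator subunit Med1 was lower in both media (-0.39, SE 0.06, and -0.37, SE 0.06), the corepressor Ncor1 was lower in both (-0.39, SE 0.06, and -0.16, SE 0.06), and Ncoa3 was higher in both (0.31, SE 0.07, and 0.55, SE 0.07). H2O2 raised 2 and lowered 2 in TβRII flox/flox, and raised 7 and lowered 2 in TβRII-/- PT cells. Lpin1, a phosphatidate phosphatase that also acts with Ppargc1a, rose in both lines (0.67, SE 0.06, and 0.46, SE 0.06), and Prmt1 and Mybbp1a fell in both. No gene of this list was called for the difference of H2O2 effects (edgeR, with 4 at an unadjusted p under 0.05, and DESeq2 with 0). Of the other sirtuins (5 of 5 tested), 0 were higher and 2 lower in untreated TβRII-/- PT cells (33.3% and 31.4% of all genes), namely Sirt5 (-1.08, SE 0.20) and Sirt4 (-0.46, SE 0.12), which are both mitochondrial like Sirt3 and went opposite to it. With H2O2 1 was higher and 2 were lower, H2O2 raised 2 in TβRII flox/flox and 3 in TβRII-/- PT cells, and no H2O2 effect was called different (edgeR, with 2 at an unadjusted p under 0.05, and DESeq2 with 0).

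Of 13 Nrf1 and Gabp targets, 2 were higher and 2 lower in untreated TβRII-/- PT cells, shares below the 33.3% and 31.4% of all genes, and 5 were higher and 3 lower with H2O2 (35.1% and 31.3% of all genes). Tfam, the mitochondrial DNA packaging and transcription factor, was higher in both media (0.50, SE 0.08, and 0.57, SE 0.08), and the import receptor Tomm20 was lower in both (-0.48, SE 0.06, and -0.58, SE 0.06). H2O2 raised 0 and lowered 4 in TβRII flox/flox, and raised 1 and lowered 3 in TβRII-/- PT cells. Cycs, cytochrome c, fell in both lines (-0.49, SE 0.08, and -0.39, SE 0.08), as did the ATP synthase subunit Atp5f1b (-0.18, SE 0.06, and -0.16, SE 0.06), and both genes are also Esrra targets. Alas1 was the 1 gene called for the difference of effects.

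Of 10 tested Esrra targets (12 listed), 4 were higher and 1 lower in untreated TβRII-/- PT cells (33.3% and 31.4% of all genes), and 7 were higher and 1 lower with H2O2 (35.1% and 31.3%). The citrate cycle enzyme Idh3a was higher in both media (0.63, SE 0.06, and 0.67, SE 0.06), and Vegfa was lower in both (-0.29, SE 0.07, and -0.26, SE 0.07). H2O2 raised 1 and lowered 5 in TβRII flox/flox, and raised 1 and lowered 3 in TβRII-/- PT cells, where the gene that rose was Acadm, a fatty acid dehydrogenase (0.32, SE 0.07). Acadm was also the 1 Esrra target called for the difference of effects.

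Of the Ppara and Ppard targets, 11 of 17 were tested. Ucp3 and Acaa1b passed the filter on low counts only through the TβRII-/- libraries and are left out of the counts between the lines. Of the other 9, 4 were higher and 4 lower in untreated TβRII-/- PT cells (33.3% and 31.4% of all genes), and 4 were higher and 2 lower with H2O2 (35.1% and 31.3%). Ucp3, a mitochondrial carrier, averaged 2.15 and 18.1 normalized counts in the untreated lines, and Acaa1b, a peroxisomal thiolase, averaged 7.96 and 42.0. Plin2, which coats lipid droplets, was lower in both media (-1.34, SE 0.07, and -0.88, SE 0.07). H2O2 raised 2 and lowered 1 in TβRII flox/flox, and raised 5 and lowered 0 in TβRII-/- PT cells. Cpt1a, which admits long-chain fatty acids into mitochondria, rose in both lines (0.93, SE 0.06, and 1.04, SE 0.06), as did Angptl4 (1.15, SE 0.33, and 1.05, SE 0.42). The H2O2 effect was higher in TβRII-/- PT cells for 3 and lower for 0. The 6 targets not tested, among them Ehhadh and Fabp1, had at most 5 counts in any library, as did Perm1, an Esrra target.

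**Figure D4:**
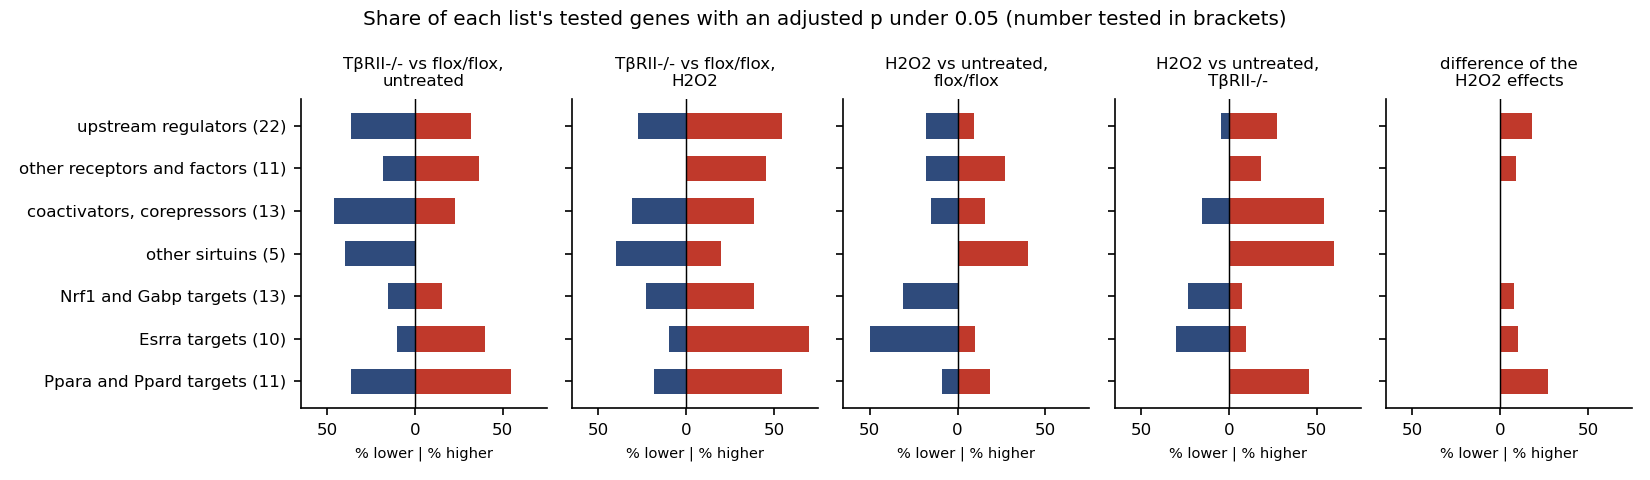
Percent of the tested genes of each list (number tested in brackets) that were lower (left, blue) or higher (right, red) at an adjusted p under 0.05 in 5 comparisons. Esrra targets had 7 of 10 higher in TβRII-/- PT cells with H2O2, where 35.1% of all genes were. The bars between the lines include Esrrg, Pparg, Ucp3 and Acaa1b, which passed the filter through 1 line only. No list had a gene with a lower H2O2 effect in TβRII-/- PT cells, where 6.28% of all genes had one.

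Without Esrrg, Pparg, Ucp3 and Acaa1b, the lists' medians of log2 fold change between untreated lines ran from -0.18 for coactivator and corepressor complexes to 0.15 for Esrra targets. With H2O2 they ran from -0.06 for the other sirtuins to 0.23 for Esrra targets. For H2O2 itself the medians ran from -0.14 to 0.12 in TβRII flox/flox and from -0.15 to 0.19 in TβRII-/- PT cells, and those of the difference of effects from 0.02 to 0.15. DESeq2 also gave 0 wherever a list had 0 genes in a direction, and at an unadjusted p under 0.05 edgeR gave 0 there too, except for 1 of the other receptors and factors that was lower with H2O2 in TβRII-/- PT cells, 1 of the other sirtuins that was higher in untreated TβRII-/- PT cells, and the differences of H2O2 effects of the coactivators, corepressors and sirtuins given above.

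The 5 protein-coding genes with the pattern most like that of Ppargc1a over the 12 libraries were Ptpn6, Afap1l1, Ccdc198, Ptp4a3 and Camsap3, by the root mean square difference of centred log2 normalized counts. That difference was 0.27, 0.28, 0.30, 0.31 and 0.33 in this order, beside a median of 1.38 over the 12272 genes compared. Ptpn6, a phosphatase better known from blood cells, averaged 52.7 ± 11.2 and 287.8 ± 31.6 normalized counts in untreated TβRII flox/flox and TβRII-/- PT cells, and 47.0 ± 3.67 and 300.2 ± 29.0 with H2O2 (SD, n = 3). All 5 were higher in TβRII-/- PT cells in both media by 2.36 to 3.19 on the log2 scale. They were chosen by likeness over these same libraries, so this difference between the lines follows from the choice. The differences of their H2O2 effects lay between -0.18 and 0.27, beside 0.80 for Ppargc1a.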

How the data were processed

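Messenger RNA was sequenced from 12 libraries with a stranded TruSeq kit per the study's methods. The deposited read counts per Ensembl transcript were made by the authors with fastp, STAR (GRCm38.p6, GENCODE M23) and featureCounts; versions are not given in the sources used here. A read can be counted on several transcripts. The labels and the study's methods name different RNA kits. Of 106332 transcripts, 104820 matched GENCODE M39 by identifier, and the others held 1.221 to 1.281% of counts. Each gene was read from its transcript with the highest total, as 17419 genes had more than 1. Normalized counts are scaled to the mean effective library size of 17351835.

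Groups were compared with edgeR 4.0.16 (R 4.3.3; TMM, filterByExpr, quasi-likelihood test) over all 12 libraries and 12971 genes, or 71474 transcripts, with Benjamini-Hochberg adjustment. Standard errors come from the coefficient and its F statistic. DESeq2, the package that the study used, was run here as version 1.42.0. Its results and other alternatives are in the closing section. The fit was tested on simulated data, with 50 genes changed by 0.5 and 50 by 1 on the log2 scale for each comparison. Between the lines it recovered 37 and 41 of them, with 8 false calls. For the difference of H2O2 effects it recovered 32 and 40, with 4 false calls, so changes of these sizes can be missed. Promoters and gene positions come from the RefSeq tables of GRCm38.p6. Likeness to Ppargc1a used genes with a mean of at least 10 counts.

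The members, lists and tests were chosen with earlier results of these data known. Beside the members, the text names the 2 genes with the largest rise and fall past the threshold of each list and comparison, or fewer, the genes that lists share, and those whose H2O2 effect differed between the lines. A few genes that meet this rule are not reported here. The lists are upstream regulators, other nuclear receptors and transcription factor partners, coactivator and corepressor complexes, other sirtuins, and targets of Nrf1 and Gabp, of Esrra, and of Ppara and Ppard. Genes without enough counts to be tested were named after their values were seen.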

Additional observations from a re-analysis of the deposited data

Results flagged for a closer look

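The H2O2 effect differed between the lines, in the test of the difference itself (edgeR, adjusted p under 0.05 over all genes), for Ppargc1a, for Ppargc1a-203 and for 10 of the 81 tested pathway genes.

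For Ppargc1a the difference was 0.80 (SE 0.19, adjusted p = 0.00635), from -0.34 in TβRII flox/flox and 0.45 in TβRII-/- PT cells, and for Ppargc1a-203 it was 0.76 (SE 0.19, adjusted p = 0.0151). Both rest in part on replicate 2 of H2O2-treated TβRII flox/flox PT cells, without which the difference was 0.53 (adjusted p = 0.0501) for Ppargc1a and 0.52 (adjusted p = 0.0928) for Ppargc1a-203.

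Among upstream regulators, Prkaa2 had a difference of 0.36 (from -0.27 to 0.09), Ppp3ca one of 0.32 (from -0.15 to 0.17), Hdac5 one of 0.41 (from -0.04 to 0.37) and Nampt one of 0.39 (from 0.02 to 0.41). Thra had the largest difference of the 10, 0.52 (from -0.45 to 0.07, adjusted p = 0.00239). The fatty acid genes Acadm (0.38, from -0.06 to 0.32), Acadl (0.35, from -0.26 to 0.10), Slc25a20 (0.51, from 0.13 to 0.64) and Plin2 (0.45, from 0.02 to 0.47) were also called, as was Alas1, the first enzyme of heme synthesis (0.46, from -0.31 to 0.15). In each case the H2O2 effect was the higher one in TβRII-/- PT cells, whereas over all genes calls in the other direction were the more common (6.28% against 3.9%).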

How the results depend on the processing

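The counts of members called moved by over 1.5 times in few alternatives, beside those that leave out 1 library. At the study's limits 3, 3, 1 and 1 members were called for the lines untreated, the lines with H2O2, H2O2 in TβRII flox/flox and H2O2 in TβRII-/- PT cells, in place of 7, 6, 3 and 3. The same limits called 1 Ppargc1a transcript for H2O2 in TβRII-/- PT cells and 2 for the difference of effects, and 12, 14, 3, 3 and 0 of the 81 pathway genes, in place of 50, 57, 27, 32 and 10. For H2O2 in TβRII flox/flox PT cells, DESeq2 and the fit of only the groups compared each called 1 member. Leaving out 1 library gave 1 to 3 members for H2O2 in TβRII flox/flox PT cells (1 without untreated replicate 1 or treated replicate 3), 0 to 1 members for the difference of effects, and 0 to 4 Ppargc1a transcripts for it (0 without replicate 2 and 4 without replicate 1 of H2O2-treated TβRII flox/flox PT cells).

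For single members, 648 alternative values kept their direction and their side of the threshold, 40 lost a call, 1 gained one and 31 changed sign. Only values near 0 that were not called changed sign. The difference of H2O2 effects on Pprc1 was -0.00786 with DESeq2, -0.0104 with DESeq2 size factors in edgeR, -0.000522 with at least 10 counts in every library and -0.00565 with the sum over transcripts, and ran from -0.0765 to 0.0422 without 1 library. That on Esrra was -0.0425 with the sum over transcripts and -0.0103 to 0.0804 without 1 library. Nrf1 between the lines with H2O2 was -0.00253 with DESeq2, -0.00511 with its size factors, -0.00254 with only the groups compared and -0.00497 with the sum over transcripts, and ran from -0.0520 to 0.0285 without 1 library, and with H2O2 in TβRII flox/flox PT cells from -0.0650 to 0.00461. Ppard between untreated lines was -0.0282 with the sum over transcripts and -0.0112 to 0.0958 without 1 library, and with H2O2 in TβRII-/- PT cells it ran from -0.0652 to 0.0239. Without 1 library, Gabpa ran from -0.0670 to 0.0217 and from -0.0296 to 0.0511 between the lines untreated and with H2O2, from -0.0300 to 0.00802 with H2O2 in TβRII-/- PT cells and from -0.0206 to 0.0815 for the difference of effects, and Sirt1 from -0.0419 to 0.0839 with H2O2 in TβRII-/- PT cells. The causes were not tested.

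No pairing by replicate number was seen: deviations from the group means of same-numbered libraries correlated between -0.1015 and 0.0582. Those of libraries with different numbers correlated between -0.1164 and 0.1175. With 3 libraries per group, this cannot show that same-numbered libraries were handled apart. With the replicate block, 7, 6, 3, 3 and 1 members were called, and the difference of H2O2 effects on Ppargc1a was 0.80 (adjusted p = 0.00661). Ppara, with at most 8 counts in any library, and 13 pathway genes had too few counts to be tested, and low expression and limited depth cannot be told apart there.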
